A study of Mus musculus with 4 samples.

Results

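The AP-2 transcription factors are a small family of DNA-binding proteins, encoded in the mouse by Tfap2a, Tfap2b, Tfap2c, Tfap2d and Tfap2e. All 5 genes were taken by symbol from the deposited expression table, which holds 33708 autosomal rows, and each of the 5 was found once. They were examined in the frontonasal prominence (FNP), the embryonic tissue that forms the forehead and nose, of wild-type and Smchd1 mutant mouse embryos. SMCHD1 is a non-canonical SMC protein with a role in silencing, and MommeD43 (MD43) is a missense allele of its gene that was induced with the mutagen ENU. Both genotypes were on the FVB/NJ background and were collected at E10.5 with 29 somites. The WT group (Smchd1+/+) had 2 embryos, labelled as 1 female and 1 male, and the MD43 group (Smchd1MommeD43/MommeD43) had 2 embryos, both labelled as male. Another record of the study gives the second WT embryo as female, so that sex and genotype may coincide. Sex chromosomes are absent from the table and sex was not checked. The second embryo of each genotype came from the same mother. The tissue was cut along its boundary with the maxillary prominence, and poly(A) RNA of the whole piece was sequenced.

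AP-2 proteins bind DNA as dimers, of themselves or of each other, at GC-rich palindromes, and recruit CITED and CBP/p300 coactivators. In the head, TFAP2A is needed in the surface ectoderm and the neural crest for closure and growth of the face. TFAP2B acts beside it in the crest, TFAP2C is best known from trophoblast and epithelium, TFAP2D from the midbrain and retina, and TFAP2E from the olfactory system.

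Promoter windows of 300 bases, from 250 bases before to 50 bases after an annotated start, were read from RefSeq (GRCm38.p6). They covered 4 of the 5 genes, and Tfap2c had no window. Of the windows found, 3 are shown, each 5′ to 3′ on the strand of its gene. The Tfap2a window is shown because it is the only window of the family with an AP-2 palindrome, and those of Tfap2b and Tfap2d because these genes are neighbours with very unequal levels. Capitals mark the palindrome.
Tfap2a, chr13:40734871-40735170, minus strand: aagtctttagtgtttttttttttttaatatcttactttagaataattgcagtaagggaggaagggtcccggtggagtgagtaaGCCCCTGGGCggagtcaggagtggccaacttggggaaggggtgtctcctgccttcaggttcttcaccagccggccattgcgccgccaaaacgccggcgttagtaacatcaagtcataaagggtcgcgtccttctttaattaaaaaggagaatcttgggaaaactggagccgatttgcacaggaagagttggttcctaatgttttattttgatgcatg
Tfap2b, chr1:19211804-19212103, plus strand: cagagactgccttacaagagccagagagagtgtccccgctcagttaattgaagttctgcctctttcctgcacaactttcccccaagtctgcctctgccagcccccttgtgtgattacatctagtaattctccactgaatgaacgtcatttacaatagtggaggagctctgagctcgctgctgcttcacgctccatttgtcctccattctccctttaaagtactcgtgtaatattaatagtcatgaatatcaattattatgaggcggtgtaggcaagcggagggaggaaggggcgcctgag
Tfap2d, chr1:19102772-19103071, plus strand: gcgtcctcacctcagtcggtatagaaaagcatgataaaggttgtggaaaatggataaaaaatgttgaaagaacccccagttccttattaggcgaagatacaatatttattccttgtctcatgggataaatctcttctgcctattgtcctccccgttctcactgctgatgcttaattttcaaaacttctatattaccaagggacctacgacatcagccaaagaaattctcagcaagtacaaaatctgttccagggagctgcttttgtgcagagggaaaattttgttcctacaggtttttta

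The palindromes searched were GCCNNNGGC and GCCNNNNGGC, which read alike on both strands. Among 32851 windows of this length, 16.6% held the shorter form, 14.8% the longer and 27.0% at least 1 of them. The match in Tfap2a, GCCCCTGGGC, began 167 bases before the start. None of the 6 other windows of the family held either form, and Tfap2c had no window to search. Tfap2b had 48.3% G and C and 8 CpG in its window, and the Tfap2d window shown had 39.7% and 5. A later Tfap2d start, at chr1:19103883-19104182, had 56.7% and 10 in its window, above those of Tfap2b. The medians over all windows were 52.7% and 7. A match to these letters describes the window and not a site in use.

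Tfap2a, Tfap2b and Tfap2c were expressed in the FNP of both genotypes, and Tfap2d and Tfap2e were near the limit of detection. The table gives 1 merged log2 RPKM value (log2 of reads per kb of transcript, scaled to library size) per genotype, the mean of its 2 libraries. Values of single libraries are not in that table, and no test against the spread between embryos was made here. The study itself compared the genotypes with an edgeR-based test, whose results are not used here. Errors are therefore counting errors, from the reads recovered out of the values, and are the least the error can be. Reads are given as the geometric mean of the 2 libraries of a genotype.

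Tfap2c (ENSMUSG00000028640, chr2:172549593-172558622) had the highest level of the family, at 3.69 log2 RPKM in WT and 3.95 in MD43, from 760 and 1269 reads. Tfap2b (ENSMUSG00000025927, chr1:19208914-19238576) followed, at 3.55 log2 RPKM in WT and 3.56 in MD43, from 1191 and 1674 reads. Tfap2a (ENSMUSG00000021359, chr13:40715302-40738376) came next, at 2.25 log2 RPKM in WT and 2.02 in MD43, from 374 and 444 reads. Tfap2a was thus the lowest of the 3 in both genotypes. Among all genes that reached 10 reads in WT or MD43, the Tfap2c level lay at percentile 73.0 in WT and 76.7 in MD43, and that of Tfap2a at percentile 48.2 and 44.9.

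Tfap2d (ENSMUSG00000042596, chr1:19103022-19166346) was at -4.25 log2 RPKM in WT and -5.52 in MD43. Its reads were 0 and 3 in the WT libraries and 0 and 1 in the MD43 libraries, without knowledge of which embryo gave which. Tfap2e (ENSMUSG00000042477, chr4:126716006-126736240) was at -3.90 log2 RPKM in WT and -4.54 in MD43. It had 1 and 5 reads in the WT libraries, and either 2 and 2 or 1 and 4 in the MD43 libraries. The merged values of both genes lay under the level of 3 reads per library, so no fold is given for either, and neither can be placed above the other. Tfap2d ends 42568 bases before Tfap2b begins on the same strand, so that a barely detected gene and the second most expressed gene of the family are neighbours.

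**Figure D1:**
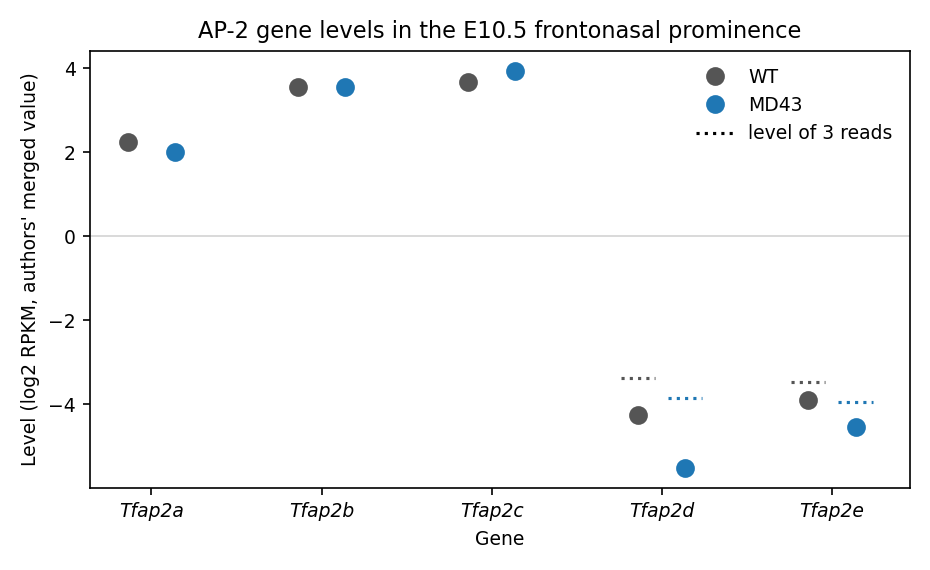
Merged level of each AP-2 gene (log2 RPKM) in WT (grey) and MD43 (blue), 1 point per genotype, with dotted lines at the level of 3 reads for Tfap2d and Tfap2e. Tfap2a, Tfap2b and Tfap2c lie between 2.02 and 3.95, and Tfap2d and Tfap2e lie under their dotted lines.

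The sum of the 5 genes was 29.4 RPKM in WT and 31.4 RPKM in MD43, 1.07-fold higher. Tfap2c gave 43.7% of that sum in WT and 49.2% in MD43. Tfap2b gave 39.7% and 37.7%, and Tfap2a 16.2% and 12.9%. Tfap2d and Tfap2e gave at most 0.178% and 0.227%.

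The comparison of MD43 with WT asks how the mutant SMCHD1 alters gene expression in the FNP. Tfap2a was 0.23 ± 0.07 lower in MD43 (counting SE of the difference in log2 RPKM, 95% counting interval -0.37 to -0.09), which is 1.17-fold. Tfap2c was 0.26 ± 0.05 higher (0.17 to 0.35), which is 1.20-fold. Tfap2b differed by 0.02 ± 0.04 (-0.06 to 0.09), and its counting interval holds 0. In whole tissue, fewer cells of a type and less RNA per cell cannot be told apart.

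Of the 3 genes with at least 10 reads, 0 were past 1.5-fold, against 4.24% of 15377 genes that were higher and 6.43% that were lower by that much. Of the 3, the differences of 2 lay outside the counting interval, as did 50.4% of all genes, so that being outside it does not set the family apart. The differences of Tfap2a and Tfap2c lay at percentiles 19.4 and 86.3 of all genes and that of Tfap2b at percentile 51.6. Among the 5502 genes with 300 to 2000 reads in both genotypes, the central 95% of differences ran from -0.43 to 0.35, and all 3 genes lay inside that range. Smchd1 itself differed by -0.01 ± 0.02 log2 RPKM, which does not check the labels, since a missense allele is still transcribed.

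**Figure D2:**
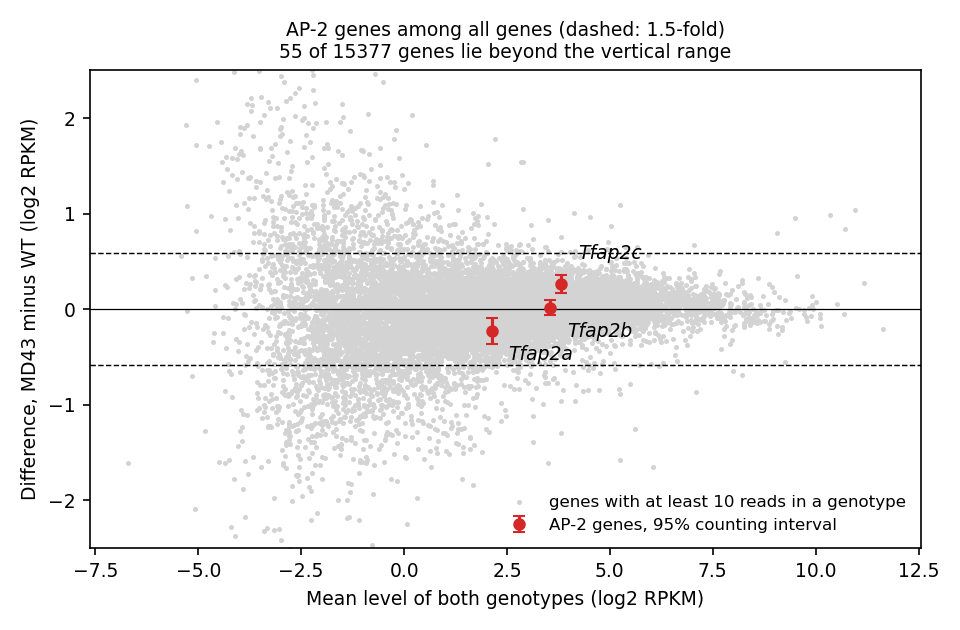
Difference in log2 RPKM, MD43 minus WT, against the mean level of both genotypes, for 15377 genes (grey) and for the AP-2 genes (red, with 95% counting intervals), with dashed lines at 1.5-fold. Tfap2a at -0.23, Tfap2b at 0.02 and Tfap2c at 0.26 lie between the dashed lines, and 55 genes lie beyond the vertical range.

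Since each merged value is a mean of 2 logs, its reads multiply to a whole number, and only some pairs of whole reads give that number. The 2 libraries of a genotype were estimated to differ in depth by 0.63 on the log2 scale in MD43 and by 0.55 in WT, and pairs within 4-fold of each other were listed. Which pair is the true one, and which library belongs to which embryo, was not determined. For Tfap2c in WT, 702 and 823 reads was the only such pair. Against the estimated depths, these reads put the WT libraries 0.32 apart in log2 RPKM, at 14.4 and 11.5 RPKM, if the larger count is that of the deeper library, and 0.78 apart if not. Over the 8 ways in which the depth ratio was estimated, the smaller spread ran from 0.20 to 0.32. All 8 took the larger count over the smaller, so their range is not the error of the spread. By these estimates the WT libraries were about as far apart in Tfap2c as the genotypes were (0.26), or further if the larger count is that of the shallower library. The higher level in MD43 is not shown to exceed the spread between embryos.

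For Tfap2c in MD43, pairs of 1033 and 1558 or of 779 and 2066 reads were possible. With the larger count in the deeper library, the first pair gives 15.6 and 15.3 RPKM, both above the WT libraries, and the second gives 11.8 and 20.2 RPKM, of which the lower lies between them. With the larger count in the shallower library, the first pair gives 23.6 and 10.1 RPKM against 16.9 and 9.82 in WT, and the groups overlap. For Tfap2a, 3 pairs were possible in MD43 and 7 in WT. The pairs nearest to the estimated depths, 351 and 562 reads in MD43 and 308 and 455 in WT, give 3.98 and 4.13 against 4.74 and 4.77 RPKM. Under another pair for WT, 364 and 385 reads, the values are 5.60 and 4.04 RPKM and overlap those of MD43. The nearest pair makes libraries alike by its choice, so no SD was taken from these values. For Tfap2b, the nearest pairs were 1290 and 2173 reads in MD43 and 976 and 1453 in WT, which give 11.3 and 12.4 against 11.6 and 11.8 RPKM.

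**Figure D3:**
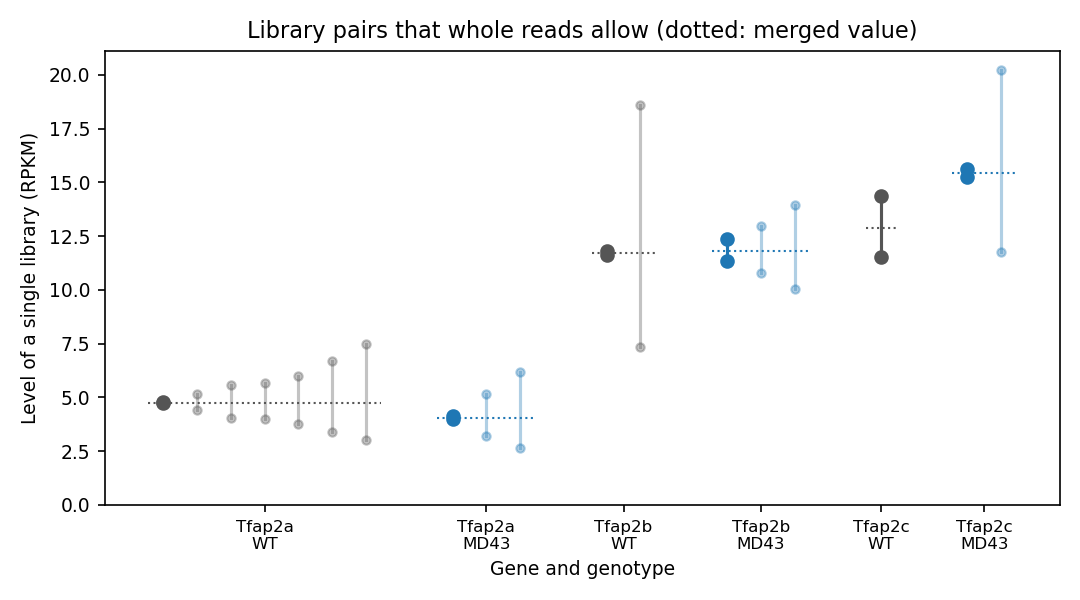
Levels (RPKM) of single libraries under each pair of whole reads that the merged value allows, for Tfap2a, Tfap2b and Tfap2c in WT (grey) and MD43 (blue), with the larger count given to the deeper library. Strong points mark the pair nearest to the estimated depths and dotted lines the merged values. Tfap2c in WT has 1 pair, at 14.4 and 11.5 RPKM, and Tfap2a in WT has 7.

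Ratios between family members within a genotype do not depend on the scaling of its libraries. Their intervals cover counting alone, and no change in a ratio was tested against the spread between embryos. Tfap2c stood at 2.71 times Tfap2a on the RPKM scale in WT and at 3.81 times in MD43. The log2 ratio was 0.49 ± 0.09 larger in MD43 (95% counting interval 0.32 to 0.66), or 1.41-fold. Tfap2b stood at 2.46 times Tfap2a in WT and 2.92 times in MD43, a change of 0.24 ± 0.08 in the log2 ratio (0.09 to 0.40). Tfap2c and Tfap2b were closest, at a ratio of 1.10 in WT and 1.31 in MD43, which differ by 0.25 ± 0.06 (0.13 to 0.37). In WT the log2 ratio of these neighbours in the order was 0.14 ± 0.05. That is less than the estimated spread of Tfap2c between the WT libraries, so that their order in WT is not fixed by these data.

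All 10 listed genes of proteins that bind AP-2 factors had at least 10 reads, with 6 higher and 4 lower in MD43, against 7870 higher and 7507 lower of all genes. By over 1.5-fold, 1 was higher and 0 were lower, a share near the 4.24% and 6.43% of all genes. Their median difference was 0.02 log2 RPKM, against 0.01 over all genes. The gene past 1.5-fold was Cited4, a CITED-family coactivator, at 1.36 log2 RPKM in WT and 2.24 in MD43 (0.88 ± 0.17, from 51.6 and 132 reads). Cited2, the coactivator best known to work with TFAP2A, was at 3.98 and 3.73. The highest levels were those of Npm1, a nucleolar chaperone, at 9.72 and 9.71, and Yeats4, a chromatin reader, at 6.39 and 6.33 log2 RPKM in WT and MD43.

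Genes linked to AP-2 factors as proposed targets or as genes of the same facial programme were mostly higher in MD43. Of 20 genes, 19 had at least 10 reads, and 18 of these were higher and 1 lower in MD43, with a median of 0.23 log2 RPKM, against 7870 higher and 7507 lower and a median of 0.01 over all genes. Outside the counting interval were 15 higher and 1 lower, against 4032 higher and 3717 lower of all 15377 genes. Past 1.5-fold were 5 higher and 1 lower, against 4.24% and 6.43% of all genes. The list was chosen with earlier results of these data known, so its counts are not a test. Krt5, a basal keratin, went from -0.97 log2 RPKM in WT to 0.19 in MD43 (1.17 ± 0.28, from 18.0 and 56.1 reads). Erbb3, a neuregulin receptor, went from 1.30 to 2.22 (0.92 ± 0.08). Cdh1, the epithelial cadherin, went from 2.77 to 3.50 (0.73 ± 0.05), and Krt8, a keratin of simple epithelia, from 4.60 to 5.30 (0.70 ± 0.04). Wnt3, a signal of the facial ectoderm, was the gene that was lower, at 1.36 in WT and -0.12 in MD43 (-1.48 ± 0.16, from 127 and 63.2 reads). Igfbp5 and Krt18, which with Krt8 had the highest mean log2 RPKM of the list, differed by 0.06 ± 0.02 and 0.49 ± 0.04. Hand2 had under 3 reads in both genotypes. Of 13 listed genes with a promoter window, 5 held an AP-2 palindrome, against 29.6% of all genes with a window.

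Lists of tissue markers did not all go the same way. For comparison, 4.24% of all 15377 genes were higher and 6.43% lower by at least 1.5-fold, and their median was 0.01. All 11 surface ectoderm genes had at least 10 reads. Of them 10 were higher, 5 by over 1.5-fold (St14, Cldn6, Grhl2, Epcam and Esrp1, by 0.89, 0.87, 0.68, 0.61 and 0.59 log2 RPKM), with a median of 0.57 and a summed level of 80.6 RPKM in WT and 125 RPKM in MD43. Several of the linked genes, such as Cdh1 and the keratins, are themselves epithelial. All 6 red blood cell genes were higher, 4 of them by over 1.5-fold (Hbb-bh1, Klf1, Hbb-y and Hba-x, by 1.04, 0.88, 0.84 and 0.79), with a median of 0.82. Of 13 neural crest genes with at least 10 reads, 3 were higher and 10 lower, with a median of -0.18. The 3 higher genes were Sox8, Pax7 and Pax3, by 0.40, 0.39 and 0.20. Outside the counting interval were 3 higher and 9 lower. Zic1 (-0.84 ± 0.03) and Sox10 (-1.27 ± 0.51, from 10.8 and 6.24 reads) were lower by over 1.5-fold. Of 7 facial mesenchyme genes, 2 were higher and 5 lower, with Twist2 at -0.71 ± 0.16 and a median of -0.20. The medians were -0.05 for 8 forebrain genes, -0.05 for 5 young neuron genes and -0.01 for 5 endothelial genes, with 0 past 1.5-fold. The forebrain genes went both ways, 4 higher and 4 lower, from -0.35 to 0.49. Of these, 3 higher and 4 lower lay outside the counting interval. The young neuron and the endothelial list each had 2 higher and 3 lower. The summed crest level was 217 RPKM in WT and 176 RPKM in MD43. This sum rests on the genes of high level, such as Zic1, which went from 5.16 to 4.32 log2 RPKM. Foxd3, also on the crest list, had under 3 reads in both genotypes. The part of tissue makeup in the differences of Tfap2a and Tfap2c was not tested.

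**Figure D4:**
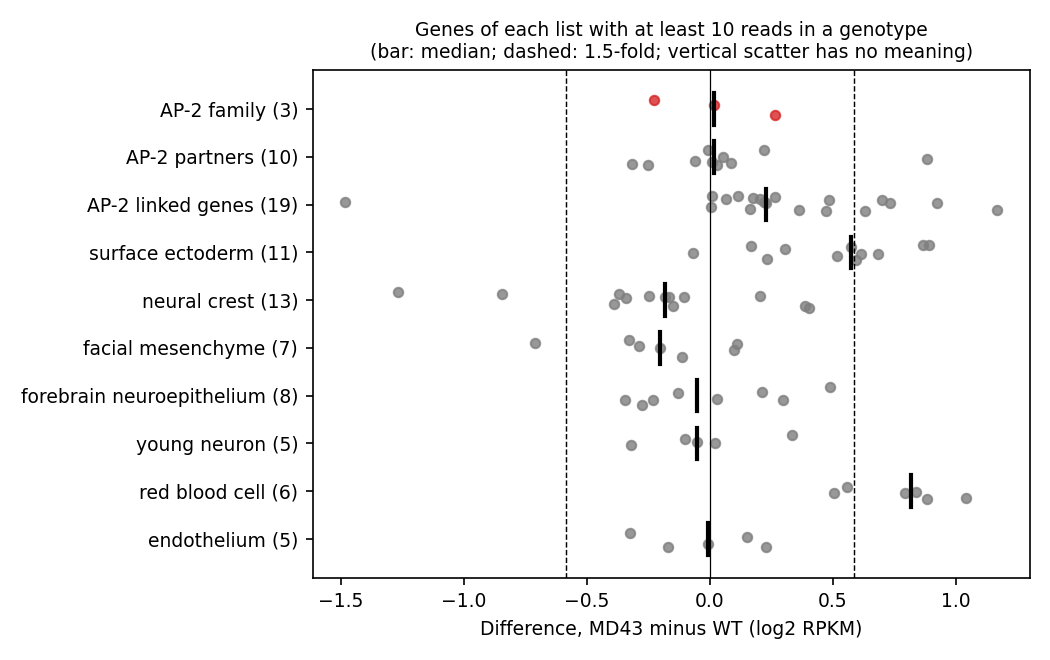
Difference in log2 RPKM, MD43 minus WT, of each gene that reached 10 reads in WT or MD43, by list, with the number of genes in brackets, black bars at the medians and dashed lines at 1.5-fold. The AP-2 genes (red) spread from -0.23 to 0.26 around a median of 0.02, and the medians of the surface ectoderm and red blood cell lists lie at 0.57 and 0.82.

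Rows within 250 kb of a member were examined next. Tfap2a is overlapped on the opposite strand by Gm47061, Gm26688 and Gm47067, which share 265, 380 and 73 exon bases with it. Whether strand was used in counting is not given in the sources used here, so that some reads may belong to either gene. Gm47061 differed by -0.19 ± 0.18 and Gm26688 by -0.02 ± 0.40 log2 RPKM, and Gm47067 had under 3 reads. At 121378 bases, Gcnt2, a glycosyltransferase, was 1.06 ± 0.20 higher in MD43, from 33.8 and 97.9 reads, and A730081D07Rik differed by -0.04 ± 0.29.

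Around Tfap2c, the 4 expressed genes Rtf2, Cstf1, Aurka and Fam210b differed by 0.10 ± 0.04, 0.11 ± 0.04, 0.04 ± 0.03 and -0.20 ± 0.08. Around Tfap2e all 8 rows had at least 10 reads. The nearest 5, Psmb2, Ncdn, AU040320, 5730409E04Rik and Clspn, differed by -0.08, 0.21, 0.09, -0.33 and 0.21 log2 RPKM. Psmb2, a proteasome subunit, ends 6292 bases from the end of Tfap2e on the other strand, so that a gene with 2305 reads in WT lies tail to tail with one that has 1 and 5. The 1 row near Tfap2e past 1.5-fold was Ago4, an Argonaute protein, at -0.63 ± 0.13 and 182534 bases away, which was named after its value was seen. Around Tfap2d and Tfap2b no row other than Tfap2b had 10 reads.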

How the data were processed

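RNA-seq was made from the FNPs of 4 embryos (2 WT, 2 MD43). Per the labels and the study's methods, the authors trimmed reads with Trim Galore 0.4.4, mapped them with HISAT2 2.0.5 to GRCm38 and quantified them in SeqMonk. The deposited values are log2 RPKM, scaled by the authors to library size and to the length of each transcript, with 1 merged column for each genotype. The other columns hold the authors' fold change, mean and FDR and were not used. Groups came from the sample labels. The 5 members and the gene lists were chosen with earlier results of these data known.

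Rows were joined to GENCODE M21 (33101 matched). Genes without reads (0.9 reads per empty library) set the scale, from which reads were recovered. Of products of 2 libraries under 1000, 99.9% were whole to within 0.01 (or 0.9 times whole) in both genotypes. The geometric mean depth was 22328791 reads in MD43 and 16055882 in WT. Reads of single libraries were listed as factor pairs, a step chosen after seeing the data. The ratio of library depths was the median over 494 (MD43) and 627 (WT) genes whose product has 1 pair within 8-fold, and all 8 versions of this estimate that were tried are reported, as a range. Values of single libraries in the study's supplementary tables had been looked at, to see whether factor pairs were right, before any version was tried, so no version is independent of them. They list few genes, none of them an AP-2 gene. No value was taken from them, and the version used is the one that was set up first.

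The planned count test was not run, since counts and values of single libraries are absent from the table. Counting errors assume Poisson reads, cover counting alone, and set 95% intervals. Genes that reached 10 reads in WT or MD43 (15377) were used, with thresholds of 1.5-fold. Members and Smchd1 were named, as were up to 5 genes per list and direction past 1.5-fold by size, the 3 highest genes of the AP-2 partner and linked lists, and up to 5 nearest expressed rows within 250 kb of a member. Some genes that this rule selects are not reported here. Cited2, the 3 higher neural crest genes and the genes near the detection limit were named after their values were seen. Scripts used Python 3.11.15, pandas 2.3.3, numpy 2.4.6 and scipy 1.17.1, and were tested on simulated data. Alternatives were pseudocounts, centring, filters, thresholds and a GC and length correction.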

Additional observations from a re-analysis of the deposited data

How the results depend on the processing

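No paired analysis was possible because the deposited table has 1 merged column per genotype and the single libraries of the AP-2 genes are in no source used here, and for the same reason leaving out each replicate, DESeq2 and other count normalizations were not run. Under pseudocounts of 0.1 and 1 RPKM, both centrings and the GC and length correction, all 25 alternative values of the 5 AP-2 genes stayed within the counting interval. The intervals of Tfap2d (-3.85 to 1.31) and Tfap2e (-2.58 to 1.31) are so wide that this says nothing about these 2 genes. The list medians moved, in 45 of 45 alternatives, by less than 1 side of a 95% interval built from the list's median counting SE. That is the error of a single gene and not of a median, so the limit is a lenient one. Tfap2a ranged from -0.24 to -0.19, Tfap2b from 0.0025 to 0.07 and Tfap2c from 0.25 to 0.26. The number of all genes past the fold threshold moved by construction. Higher genes went from 652 to 190 with at least 50 reads, 1536 with no filter and 252 at 2-fold. Lower genes went from 989 to 400, 2589 and 380. The spread of Tfap2c between the WT libraries ran from 0.20 to 0.32 over 8 estimates of the depth ratio, all chosen after seeing the data, so it was below the genotype difference under some and above it under others. Depth limits Tfap2d and Tfap2e, for which no difference was detectable.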
